A study of Mus musculus with 4 samples.

Results

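The endothelial marker genes are 10 genes that are transcribed mainly in the cells lining blood vessels and the heart's chambers: Pecam1, Cdh5, Kdr, Flt1, Tek, Tie1, Cldn5, Egfl7, Esam and Vwf. They were chosen by name, with earlier results of these data known, from 53465 genes counted in ventricles of newborn mice at postnatal day 1. All 10 were detected in every library and all 10 passed the filter on low counts, which left 18157 genes to be tested. Knockout-labelled mice carried Ctnnb1floxP/floxP with alphaMHC-Cre+, a Cre recombinase under a promoter that is active in cardiomyocytes (2 libraries). Control mice carried the same floxed alleles and no Cre, alphaMHC-Cre- (2 libraries). The deletion is therefore aimed at cardiomyocytes, not at the endothelial cells in which these genes are read, and the comparison takes in the transgene as well as the deletion. Nothing in the labels says that the libraries are separate animals, so p-values measure only the spread between these libraries. Between the controls that spread takes in a difference in T cell and thymocyte markers, given below, which does not show whether they are separate animals. Between the knockout-labelled libraries it is not technical alone, because they differed in sex-linked RNA, as given below.

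Endothelial cells form the inner wall of every vessel, and in the heart they lie beside nearly every myocyte as capillaries and line the chambers as endocardium. They grow and survive on vascular endothelial growth factor, VEGF, which myocytes and other cells secrete and which signals through the receptor kinases encoded by Kdr and Flt1, and on angiopoietins, which signal through Tek with Tie1 as its partner. The cells are held together by adherens junctions built on VE-cadherin (Cdh5), whose tail binds β-catenin, and by tight junctions that contain claudin 5 (Cldn5).

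Depth was ample for these genes, whose lowest count in any library was 1532. Knockout-labelled libraries 1 and 2 had 45651797 and 34027143 reads counted to genes, and controls 1 and 2 had 43288936 and 44624578. Genes of the mitochondrial genome took 10.2% and 14.4% of these counts in the knockout-labelled ventricles, against 5.25% and 7.65% in the controls. Levels are in CPM, read counts scaled to a common library size with TMM factors, which centre the bulk of genes between libraries. The targeted gene, Ctnnb1, which encodes β-catenin, was at 526 and 460 CPM in knockout-labelled ventricles and 408 and 434 CPM in controls (log2 fold change 0.23 ± 0.20, SE, adjusted p = 0.532, edgeR). The count covers the whole gene and all cell types, so it does not check the labels. Knockout-labelled 2 differed from the other 3 libraries in sex-linked RNA, with Xist at 602 CPM, against 0.180 CPM in knockout-labelled 1 and 0.257 and 0.327 CPM in controls 1 and 2. Where a value rests on knockout-labelled 2, this difference cannot be told apart from other features of that library. The 13 T cell and thymocyte markers summed to 2.37 and 1.55 CPM in the knockout-labelled ventricles and to 388 and 7.11 CPM in controls 1 and 2, and all 13 were highest in control 1, beside 26.2% of all genes tested.

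The summed level of the endothelial markers overlapped between the groups, and 0 of them passed the test. Their summed level was 1518 and 1732 CPM in knockout-labelled ventricles 1 and 2 and 1674 and 1772 CPM in controls 1 and 2. Vwf and Pecam1 were both highest in knockout-labelled 2. Without them the sums were 1148 and 1132 CPM in knockout-labelled ventricles and 1273 and 1379 CPM in controls, and did not overlap. That choice follows their values, and Flt1, also highest in that library, was kept. The separation of these sums is therefore a description and no test. As a share of all gene counts, with no TMM scaling, the 10 genes took 0.147% and 0.151% in the knockout-labelled ventricles and 0.181% and 0.194% in the controls (95% Wilson intervals, for counting error only, from 0.146% to 0.149%, 0.149% to 0.152%, 0.179% to 0.182% and 0.193% to 0.196%). On that unscaled share the knockout-labelled ventricles lay below both controls, as did 44.8% of all genes tested with library totals alone. On that scale the median log2 fold change was -0.38 for the 10 genes and -0.26 for all genes. With bulk RNA, fewer cells of a type and less RNA per cell cannot be told apart. At an adjusted p under 0.05 edgeR's quasi-likelihood test called 0 of the 10 genes in either direction, as did DESeq2 and limma-voom. Over all genes tested edgeR called 0.011% higher and 0% lower, and DESeq2 called 5.58% higher and 4.43% lower. Limma-voom called 0% in both directions. With no adjustment, edgeR gave p under 0.05 for 0 of the 10 upward, beside 11.8% of all genes, and for 2 downward, beside 11.2%. The counts were also 0 upward and 2 downward in DESeq2, beside 6.63% and 5.91%, and in limma-voom, beside 11.5% and 10.7%. Those DESeq2 shares are over 31993 genes, without the filter on low counts, so they are not comparable with the shares over 18157 genes. The 10 genes had a median log2 fold change of -0.14, beside -0.02 over all genes tested.

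Those unadjusted counts moved with the libraries used. Scaling by library totals alone gave 0 upward, beside 6.3% of all genes, and 4 downward, beside 20.4%. Correction for GC content and gene length gave 0 upward, beside 10.5%, and 1 downward, beside 11.1%. Leaving out knockout-labelled 1 gave 3 upward (Pecam1, Flt1 and Vwf), beside 16.1%, and 2 downward, beside 13.5%. Leaving out knockout-labelled 2 gave 0 upward, beside 11.3%, and 3 downward, beside 10.5%. Leaving out control 1 gave 0 in both directions, beside 4.1% and 3.59%, and so did leaving out control 2, beside 5.12% and 7.16%.

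The number of genes lower in both knockout-labelled ventricles was near the share over all genes tested. Cldn5, Egfl7, Kdr and Tie1 had both knockout-labelled values below both controls (4 of 10, beside 29.7% of all genes tested), and 0 of the 10 had both above (beside 26.5%). Pecam1, Cdh5, Flt1, Tek, Esam and Vwf overlapped between groups. Scaled by library totals alone, 6 of the 10 lay below both controls, beside 44.8% of all genes, and 0 lay above, beside 15.3%.

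**Figure D1:**
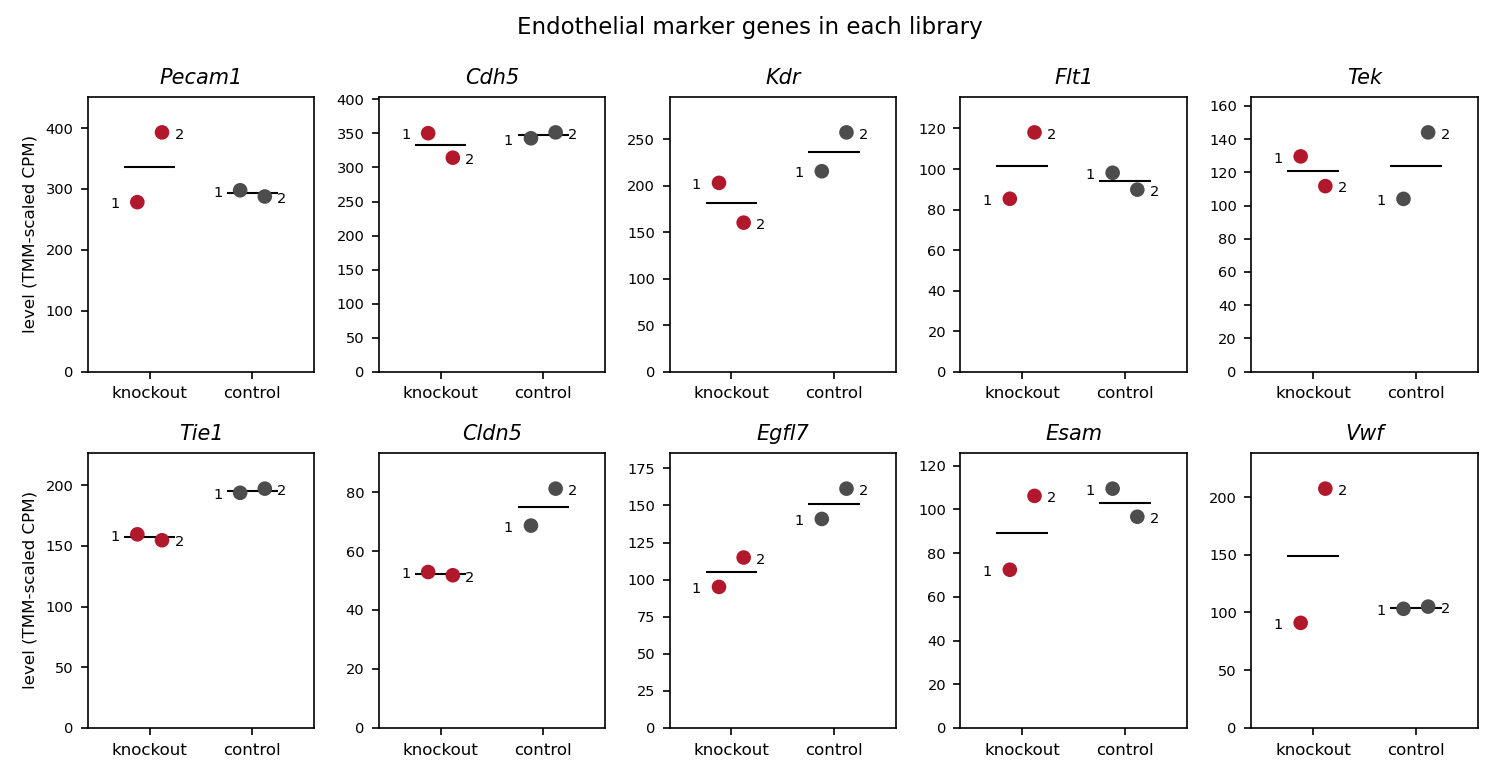
Level of each endothelial marker gene in TMM-scaled CPM (vertical axis from 0, own scale per gene) in knockout-labelled (left, red) and control (right, grey) libraries, with numbers giving the replicate and bars the group mean (n = 2 each). Cldn5, Egfl7, Kdr and Tie1 do not overlap between groups, and the knockout-labelled ventricles lie farthest apart for Vwf, at 91.0 and 207 CPM.

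Promoter sequences were available from RefSeq (GRCm38.p6, 250 bases before to 50 bases after each annotated start) for 6 of the 10 genes: Egfl7, Tek, Tie1, Kdr, Flt1 and Cldn5. The 4 genes that were lower in both knockout-labelled ventricles are all among them and are shown, with Egfl7 by its most upstream annotated start. Endothelial promoters are commonly bound by transcription factors of the ETS family, whose sites hold the core GGAA, so capitals mark every match to the motif AGGAAG, or to a further ETS motif, CCGGAA, read on either strand. The Kdr window lies at chr5:75978406-75978705 on the reverse strand, Tie1 at chr4:118489800-118490099 on the reverse strand, Cldn5 at chr16:18776597-18776896 on the forward strand and Egfl7 at chr2:26580833-26581132 on the forward strand.
Kdr: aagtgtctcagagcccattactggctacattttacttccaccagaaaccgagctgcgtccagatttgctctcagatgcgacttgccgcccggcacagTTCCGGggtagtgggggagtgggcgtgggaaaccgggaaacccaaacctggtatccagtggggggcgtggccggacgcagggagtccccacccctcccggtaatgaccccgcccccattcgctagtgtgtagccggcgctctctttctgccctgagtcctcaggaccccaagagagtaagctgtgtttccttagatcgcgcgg
Tie1: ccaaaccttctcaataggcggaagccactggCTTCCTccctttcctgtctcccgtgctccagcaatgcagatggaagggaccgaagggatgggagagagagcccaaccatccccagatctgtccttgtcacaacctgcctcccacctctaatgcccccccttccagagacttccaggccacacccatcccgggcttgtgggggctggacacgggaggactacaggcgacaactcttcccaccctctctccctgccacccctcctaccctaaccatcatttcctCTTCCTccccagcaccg
Cldn5: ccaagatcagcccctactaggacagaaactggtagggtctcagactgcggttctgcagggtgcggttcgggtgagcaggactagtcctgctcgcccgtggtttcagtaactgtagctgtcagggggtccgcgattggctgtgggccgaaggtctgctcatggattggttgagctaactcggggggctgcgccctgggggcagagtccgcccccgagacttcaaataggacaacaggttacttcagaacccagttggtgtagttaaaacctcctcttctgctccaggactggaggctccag
Egfl7: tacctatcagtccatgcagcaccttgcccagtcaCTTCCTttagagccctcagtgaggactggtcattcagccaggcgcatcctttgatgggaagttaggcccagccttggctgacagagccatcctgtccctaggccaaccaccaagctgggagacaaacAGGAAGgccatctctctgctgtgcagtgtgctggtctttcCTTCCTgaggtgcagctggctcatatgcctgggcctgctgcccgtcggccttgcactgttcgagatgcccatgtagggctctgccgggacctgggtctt

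These windows held 1 match for Kdr, 2 for Tie1, 0 for Cldn5 and 3 for Egfl7, whose other 2 annotated starts had 2 and 0. Tek, with 0 matches, and Flt1, with 2, are the 2 other genes with a window. Of all 32851 RefSeq windows of the same length, 45.2% held at least 1 match to either motif, and 5 of the 8 windows of these genes did. The motifs can overlap in letters, but 0 pairs of matches did so in these windows. A match is a run of letters, not a site known to be bound.

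Neither VEGF receptor passed the test. Kdr (ENSMUSG00000062960, chromosome 5, 75932827 to 75978458, reverse strand, GRCm38), the main signalling receptor of VEGF in endothelium, was at 203 and 160 CPM in knockout-labelled ventricles 1 and 2 and 215 and 257 CPM in controls 1 and 2. Both knockout-labelled values were lower than both controls, although knockout-labelled 1 lay close to control 1. The log2 fold change was -0.38 ± 0.21 (SE; 95% interval -0.89 to 0.13, adjusted p = 0.322, edgeR). It was -0.21 without knockout-labelled 2, -0.24 without control 2, -0.24 once corrected for GC content and gene length and -0.61 with library totals alone. Flt1 (chromosome 5, 147561604 to 147726011, reverse strand), a receptor that binds VEGF tightly, signals weakly and in its soluble form acts as a decoy, was at 85.3 and 118 CPM in knockout-labelled ventricles and 98.1 and 89.8 CPM in controls. The controls lay between the 2 knockout-labelled values. Its log2 fold change was 0.11 ± 0.21 (SE; interval -0.39 to 0.62, adjusted p = 0.780, edgeR), and it was -0.14 with library totals alone, -0.13 without knockout-labelled 2 and 0.38 without knockout-labelled 1.

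Neither Tie1 nor Tek passed the test, and only the Tie1 values did not overlap between groups. Tie1 (chromosome 4, 118471191 to 118490061, reverse strand), an orphan receptor that modulates Tek, was at 160 and 155 CPM in knockout-labelled ventricles and 194 and 197 CPM in controls. Replicates were close, at 157 ± 3.45 CPM and 196 ± 2.43 CPM (SD, n = 2 each), yet the log2 fold change of -0.32 ± 0.16 (SE; interval -0.72 to 0.09) had an adjusted p of 0.303 (edgeR), and it was -0.05 once corrected for GC content and gene length. Tek (chromosome 4, 94739289 to 94874976, forward strand), the receptor of angiopoietins 1 and 2, was at 130 and 112 CPM in knockout-labelled ventricles and 104 and 144 CPM in controls. The knockout-labelled values lay between the 2 controls, and the log2 fold change, -0.04 ± 0.22 (SE; interval -0.57 to 0.49, adjusted p = 0.929, edgeR), was 0.22 without control 2 and 0.07 without knockout-labelled 2.

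The junction genes Cldn5 and Cdh5 did not pass the test, and only the Cldn5 values did not overlap between groups. Cldn5 (chromosome 16, 18776847 to 18778262, forward strand, 1 exon block), which seals endothelial tight junctions, was at 52.9 and 51.8 CPM in knockout-labelled ventricles and 68.6 and 81.2 CPM in controls. The 2 knockout-labelled ventricles nearly coincided and both lay below the controls. The log2 fold change was -0.52 ± 0.16 (SE; interval -0.91 to -0.12), with an unadjusted p of 0.0186 and an adjusted p of 0.145 (edgeR; 0.131 in DESeq2). The unadjusted p was 0.0563 without control 1 and 0.196 without control 2, where the log2 fold changes were -0.63 and -0.38. Cdh5 (chromosome 8, 104101625 to 104144511, forward strand), whose product binds β-catenin, was at 350 and 314 CPM in knockout-labelled ventricles and 343 and 352 CPM in controls. Its groups overlapped, and the log2 fold change was -0.06 ± 0.19 (SE; interval -0.52 to 0.39, adjusted p = 0.866, edgeR), which turned to 0.03 once corrected for GC content and gene length, and to 0.02 without knockout-labelled 2. The interval takes in a decrease by 30.2% and an increase of 31.1%.

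Pecam1 and Esam, 2 adhesion molecules of the immunoglobulin superfamily at endothelial contacts, showed no common direction. Pecam1 (chromosome 11, 106654217 to 106750628, reverse strand), which platelets and leukocytes also carry, was at 278 and 393 CPM in knockout-labelled ventricles and 298 and 288 CPM in controls. Knockout-labelled 2 was the high library and the other 3 were alike (log2 fold change 0.20 ± 0.23, SE, adjusted p = 0.645, edgeR; -0.06 with library totals alone and -0.06 without knockout-labelled 2, and 0.48 without knockout-labelled 1). Esam (chromosome 9, 37528078 to 37538319, forward strand) was at 72.4 and 106 CPM in knockout-labelled ventricles and 110 and 96.7 CPM in controls. Here knockout-labelled 1 was the low library (log2 fold change -0.21 ± 0.23, SE, adjusted p = 0.618, edgeR), and without it the value was 0.09.

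The genes of the secreted products, Egfl7 and Vwf, had the lowest and the highest log2 fold change of the 10, and neither passed the test. Egfl7 (chromosome 2, 26580014 to 26593120, forward strand), an extracellular matrix protein of growing vessels whose gene also holds miR-126, was at 95.1 and 115 CPM in knockout-labelled ventricles and 141 and 161 CPM in controls. Both knockout-labelled values were lower than both controls by more than replicates differed. The log2 fold change was -0.53 ± 0.18 (SE; interval -0.98 to -0.07), with an unadjusted p of 0.0290 and an adjusted p of 0.171 (edgeR; 0.143 in DESeq2). Without knockout-labelled 1 the log2 fold change was -0.34 (unadjusted p = 0.103), and once corrected for GC content and gene length it was -0.35 (unadjusted p = 0.0827). The unadjusted p was 0.0847 without control 1 and 0.210 without control 2. Egfl7 shares 264 exon bases with the annotated gene Gm20532 and 64, on the opposite strand, with Agpat2, so reads there may have been set aside as ambiguous, and Mir126a itself had 0 counts in every library. Vwf (chromosome 6, 125546774 to 125686679, forward strand), the carrier of clotting factor VIII that endothelial cells and megakaryocytes make, was at 91.0 and 207 CPM in knockout-labelled ventricles and 103 and 105 CPM in controls. Knockout-labelled 1 was the lowest of the 4 libraries and knockout-labelled 2 the highest. The log2 fold change of 0.52 ± 0.37 (SE; interval -0.40 to 1.43, adjusted p = 0.450, edgeR) rested on knockout-labelled 2. Without that library it was -0.19, and without knockout-labelled 1 it was 1.04 (adjusted p = 0.0537, edgeR, where the alternatives spanned 0.0537 to 0.823).

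**Figure D2:**
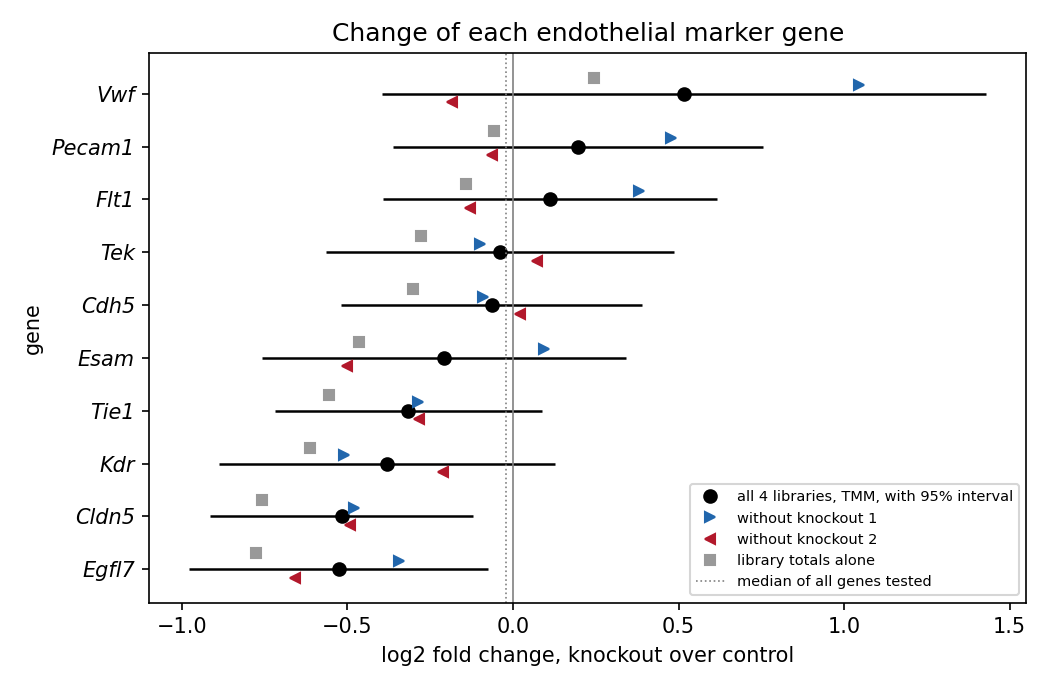
Log2 fold change, knockout over control (horizontal axis), of each endothelial marker gene with all 4 libraries and its 95% interval (black), without 1 of the knockout-labelled ventricles (triangles) and with library totals alone (squares). Intervals of Cldn5 and Egfl7 lie below 0 before adjustment over all genes, and the direction of Vwf, Pecam1 and Flt1 depends on knockout-labelled 2.

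In the authors' deposited table, whose processing notes name DESeq2, the log2 fold changes of Cldn5 and Egfl7 were -0.50 and -0.50, with adjusted p-values of 0.129 and 0.141. That table listed Vwf at 0.54 (adjusted p = 0.410).

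Knockout-labelled 2 was the highest library for Pecam1, Flt1 and Vwf and the lowest for Cdh5, Kdr, Tie1 and Cldn5, so single genes moved in opposite directions within it. Over all genes tested it was the highest for 30.2% and the lowest for 33.5%. Shares of the 10 genes' summed counts, which no scaling of libraries changes, show the same split. Vwf took 6.00% and 12.0% of those counts in knockout-labelled ventricles 1 and 2 and 6.16% and 5.93% in controls 1 and 2 (95% Wilson intervals from 5.82% to 6.18%, 11.7% to 12.3%, 6.00% to 6.33% and 5.78% to 6.09%). Egfl7 took 6.27% and 6.63% in knockout-labelled ventricles and 8.42% and 9.11% in controls (intervals from 6.09% to 6.45%, 6.42% to 6.85%, 8.22% to 8.61% and 8.92% to 9.30%). The share of Cldn5 was 3.48% and 2.99% in knockout-labelled ventricles and 4.10% and 4.58% in controls (intervals from 3.35% to 3.63%, 2.85% to 3.14%, 3.96% to 4.24% and 4.44% to 4.72%). The knockout-labelled shares of Egfl7, Cldn5 and Tie1 lay below both controls. Those of Pecam1, at 18.3% and 22.7%, lay above both, at 17.8% and 16.2%. Those of Kdr overlapped, at 13.4% and 9.25% in knockout-labelled ventricles and 12.9% and 14.5% in controls. Shares add to a whole, so the large share of Vwf in knockout-labelled 2 lowers the others there.

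The order of levels was largely kept across libraries. Per kilobase of merged exons (CPM per kb, a level), Cdh5 was the highest of the 10 in all 4 libraries, at 83.4 and 74.8 in knockout-labelled ventricles and 81.6 and 83.6 in controls. Pecam1 was at 44.7 and 63.1 CPM per kb in knockout-labelled ventricles, where it ranked 2, and at 47.8 and 46.2 in controls, where it ranked 3. Cldn5 was at 37.3 and 36.6 CPM per kb in knockout-labelled ventricles and at 48.5 and 57.3 in controls, where it ranked 2. Below them on average, Egfl7 and Esam were at 29.3 and 31.1 CPM per kb over the knockout-labelled ventricles and 42.2 and 36.0 over the controls. Tie1 was at 32.5 and 31.5 CPM per kb in knockout-labelled ventricles and 39.4 and 40.1 in controls. The order of Egfl7, Esam and Tie1 changed between libraries. In knockout-labelled 2 Esam ranked 3, above Cldn5 at 4. In knockout-labelled 1 Tek ranked 5, above Egfl7 at 6 and Esam at 7. Tek and Kdr averaged 25.6 and 20.1 CPM per kb over the knockout-labelled ventricles and 26.3 and 26.2 over the controls. Flt1 and Vwf were the lowest, at 7.53 and 9.29 CPM per kb on average in knockout-labelled ventricles and 6.96 and 6.48 in controls, and they did not differ beyond their spread. Merged exons take in every annotated isoform, so a gene such as Flt1, with 13504 merged bases, is understated where short isoforms dominate. Spearman's rho of these levels over the 10 genes ranged from 0.830, between the 2 knockout-labelled ventricles, to 0.976, between the 2 controls, as a description with no test.

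**Figure D3:**
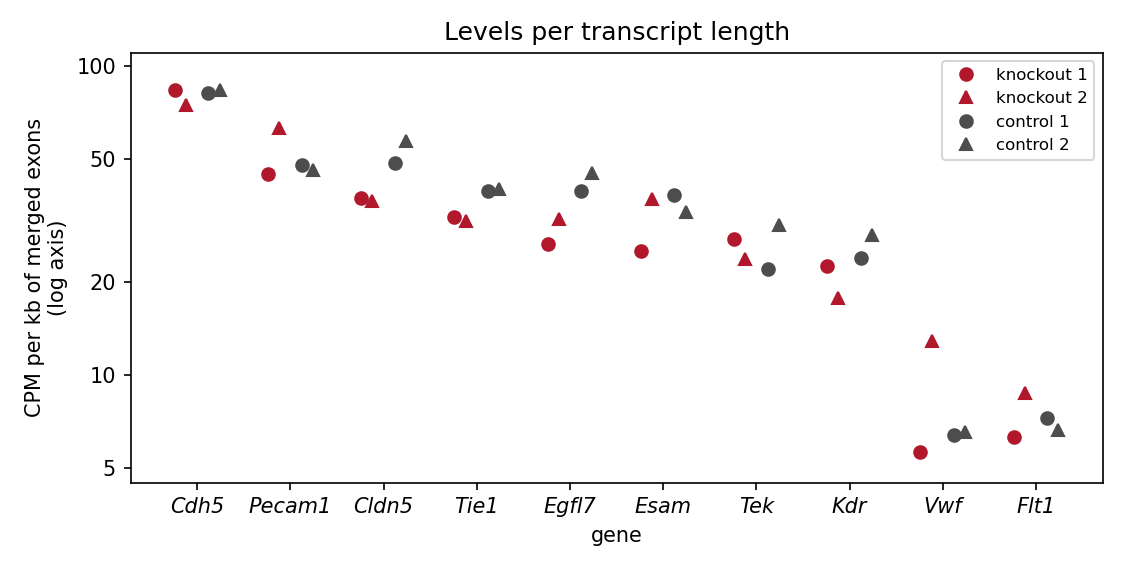
Level of each endothelial marker gene in CPM per kb of merged exons (log axis) in the 4 libraries, ordered by the mean. Cdh5 is highest throughout, and Vwf and Flt1 lie below the other 8 genes in every library.

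The median profile of the 10 genes, as log2(CPM + 1) less the gene's own mean, was -0.17 and -0.11 in knockout-labelled ventricles and 0.04 and 0.11 in controls. Of 9427 other protein-coding genes with a mean of at least 10 CPM, the 5 whose profile lay nearest over the 4 libraries were Adpgk, Uvssa, Tmem184b, Zfp952 and Zbtb10, with root mean square distances of 0.0356 to 0.0388 on that scale. The likeness is over 4 libraries only and is a description.

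Genes of the same signalling systems outside the 10 also gave 0 calls in edgeR. Of 11 tested VEGF and angiopoietin ligands and co-receptors, 0 passed in either direction at an adjusted p under 0.05 in edgeR or in DESeq2. Over all genes tested those shares were 0.011% higher and 0% lower in edgeR, and 5.58% and 4.43% in DESeq2. At an unadjusted p under 0.05 edgeR had 0 higher and 0 lower, beside 11.8% and 11.2% of all genes. The median log2 fold change was 0.12 (-0.13 with library totals alone, where the median of all genes was -0.26). Vegfa, the main ligand of Kdr and Flt1, was at 264 and 370 CPM in knockout-labelled ventricles and 472 and 433 CPM in controls. Both knockout-labelled values lay below both controls (log2 fold change -0.52 ± 0.23, SE; adjusted p = 0.252 in edgeR). Vegfb, a ligand of Flt1, was the most abundant per length, at 141 and 168 CPM in knockout-labelled ventricles and 165 and 119 CPM in controls. Angpt1, the activating ligand of Tek, was at 30.0 and 8.25 CPM in knockout-labelled ventricles and 21.9 and 52.3 CPM in controls, and overlapped between groups. Ptprb, the endothelial phosphatase that restrains Tek, was at 97.1 and 92.9 CPM in knockout-labelled ventricles and 122 and 115 CPM in controls (log2 fold change -0.32 ± 0.16, SE, adjusted p = 0.278, edgeR).

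Of 27 tested endothelial surface and junction genes, edgeR called 0 in either direction, beside 0.011% of all genes higher and 0% lower. DESeq2 also called 0, beside 5.58% and 4.43%. Unadjusted, edgeR had 0 higher and 1 lower, beside 11.8% and 11.2%. The median log2 fold change was 0.04 (-0.19 with library totals alone). The median was 0.21 without knockout-labelled 1 and -0.05 without knockout-labelled 2. In this list 5 of 27 were higher in both knockout-labelled ventricles, beside 26.5% of all genes, and 6 were lower in both, beside 29.7%. Knockout-labelled 2 was the highest library for 13 of 27, beside 30.2% of all genes. Emcn, endomucin, a sialomucin of capillaries and veins, was at 75.1 and 268 CPM in knockout-labelled ventricles and 66.1 and 80.0 CPM in controls. Eng, endoglin, a TGF-β co-receptor, was at 279 and 582 CPM in knockout-labelled ventricles and 324 and 300 CPM in controls. For both, as for Vwf and Pecam1, knockout-labelled 2 was the library apart from the other 3. Jam2, a junctional adhesion molecule, was lower in both knockout-labelled ventricles, at 43.6 and 37.9 CPM, against 50.6 and 63.8 CPM in controls (log2 fold change -0.49 ± 0.18, SE, adjusted p = 0.189, edgeR). Ecscr, an endothelial surface regulator, was at 31.4 and 48.9 CPM in knockout-labelled ventricles and 24.8 and 29.8 CPM in controls.

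Of 20 tested endothelial transcription factors, 9 were lower in both knockout-labelled ventricles (beside 29.7% of all genes) and 0 higher in both, with a median log2 fold change of -0.19. EdgeR called 0, beside 0.011% of all genes higher and 0% lower, and DESeq2 called 1 lower, beside 4.43%. Unadjusted, edgeR had 0 higher and 5 lower, beside 11.8% and 11.2% of all genes. The 5 became 8 with library totals alone, beside 20.4% of all genes. The median was -0.24 without control 1 and -0.15 without control 2. Leaving out knockout-labelled 2 moved the median to -0.38, and scaling by library totals moved it to -0.43. The gene called by DESeq2 was Ets2, an ETS family factor, at 123 and 99.1 CPM in knockout-labelled ventricles and 180 and 171 CPM in controls (log2 fold change -0.66 ± 0.18, SE, adjusted p = 0.128 in edgeR and 0.0369 in DESeq2). Klf2, a factor induced by blood flow, was at 47.0 and 49.7 CPM in knockout-labelled ventricles and 65.4 and 79.3 CPM in controls (adjusted p = 0.133, edgeR). Sox18, a factor of vascular and lymphatic development, was at 37.2 and 52.6 CPM in knockout-labelled ventricles and 73.8 and 66.9 CPM in controls (adjusted p = 0.150, edgeR).

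Of 19 tested Notch, arterial, venous and tip-cell genes, edgeR called 0, beside 0.011% of all genes higher and 0% lower. Unadjusted, it had 2 higher and 4 lower, beside 11.8% and 11.2%, and the median log2 fold change was -0.26. The number lower was 6 with library totals alone, beside 20.4% of all genes, and 3 once corrected for GC content and gene length, beside 11.1%. The median was -0.15 without knockout-labelled 1, -0.48 without knockout-labelled 2, -0.17 without control 1, -0.40 without control 2, -0.10 once corrected for GC content and gene length and -0.52 with library totals alone. DESeq2 called Jag1 lower and Apln higher, beside 4.43% and 5.58% of all genes. Jag1, a Notch ligand, was at 18.0 and 20.6 CPM in knockout-labelled ventricles and 29.0 and 36.4 CPM in controls (log2 fold change -0.76 ± 0.20, SE; adjusted p = 0.115 in edgeR and 0.0405 in DESeq2). The ligand Jag2 and the receptor Notch1 lay lower as well, with log2 fold changes of -0.68 ± 0.19 and -0.62 ± 0.17 (SE; adjusted p = 0.128 and 0.127 in edgeR). Apln, the peptide apelin, which marks sprouting endothelium and is named here after its values were seen, was at 15.96 and 29.2 CPM in knockout-labelled ventricles and 2.89 and 8.54 CPM in controls (log2 fold change 1.98 ± 0.56, SE; adjusted p = 0.129 in edgeR and 0.00319 in DESeq2). Ephb4, a receptor of venous endothelium, was the most abundant of the list per length, at 155 and 107 CPM in knockout-labelled ventricles and 162 and 160 CPM in controls.

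Genes of heart capillaries and endocardium gave 0 calls in edgeR, beside 0.011% of all genes tested called higher and 0% lower. Of 9 capillary genes edgeR called 0 (unadjusted, 1 higher and 3 lower, beside 11.8% and 11.2% of all genes, and 0 in both directions without control 1), with a median of -0.02 (0.12 without knockout-labelled 1 and -0.38 without knockout-labelled 2). Cd36, a fatty acid receptor that myocytes also make, was at 1209 and 1497 CPM in knockout-labelled ventricles and 881 and 1031 CPM in controls. DESeq2 called 1 of the 9, Rgcc, lower, beside 4.43% of all genes. Rgcc, a regulator of the cell cycle found in capillaries, was at 12.8 and 18.4 CPM in knockout-labelled ventricles and 32.7 and 27.2 CPM in controls (log2 fold change -0.94 ± 0.24, SE; adjusted p = 0.113 in edgeR and 0.0228 in DESeq2). Car4, a carbonic anhydrase on the capillary surface, and Tcf15, a capillary transcription factor, had log2 fold changes of -0.73 ± 0.24 and -0.73 ± 0.29 (SE; adjusted p = 0.152 and 0.209, edgeR). Of 4 endocardial genes, 2 were higher in both knockout-labelled ventricles, beside 26.5% of all genes, with a median of 0.89 (0.31 without knockout-labelled 2). Unadjusted, edgeR had 2 of the 4 higher, beside 11.8%, and 0 without knockout-labelled 2 or without control 1. Edn1, endothelin 1, was at 15.8 and 50.8 CPM in knockout-labelled ventricles and 10.2 and 11.8 CPM in controls, and Nrg1, neuregulin 1, which signals to myocytes, at 5.64 and 22.7 CPM in knockout-labelled ventricles and 2.53 and 4.70 CPM in controls. Both were called by DESeq2 (adjusted p = 0.0153 and 0.0172, beside 5.58% of all genes called higher) and not by edgeR (adjusted p = 0.153 and 0.168), and in both the value of knockout-labelled 2 was far above that of knockout-labelled 1. Npr3, the natriuretic peptide clearance receptor, was at 100.1 and 177 CPM in knockout-labelled ventricles and 102 and 141 CPM in controls.

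**Figure D4:**
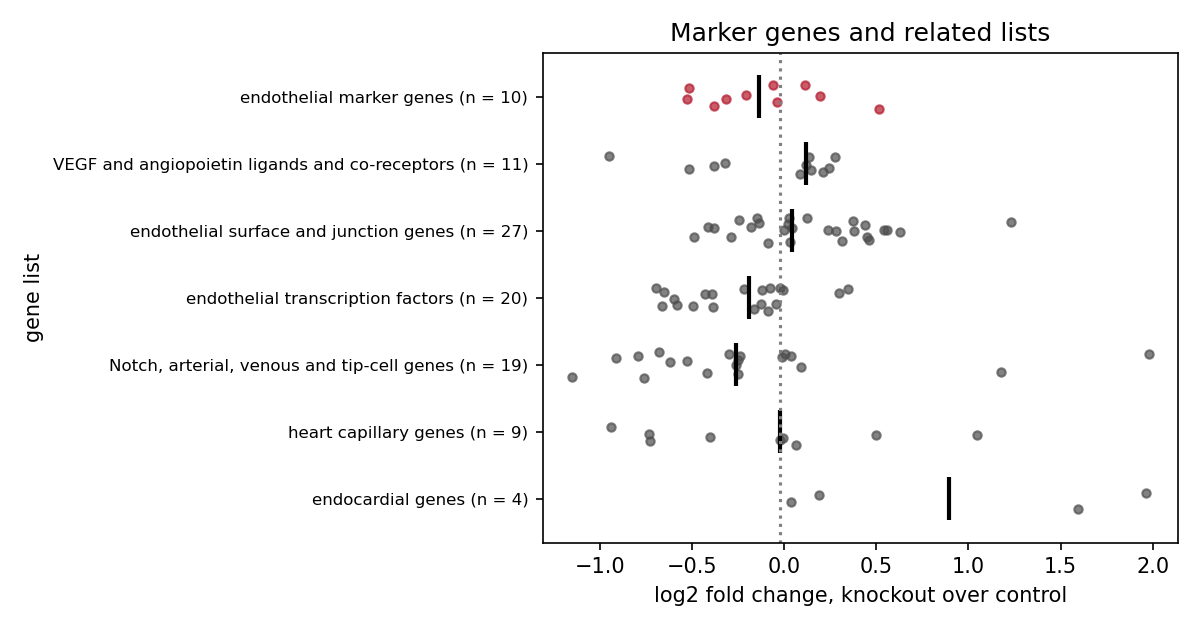
Log2 fold change, knockout over control (horizontal axis), of every tested gene in the endothelial marker set (red) and 6 related lists (grey), with the median of each list as a bar and the median of all genes tested, -0.02, as a dotted line. The 10 marker genes span -0.53 to 0.52, and 4 endocardial genes span 0.04 to 1.96.

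Markers of other cells were read beside the endothelial genes. The 9 platelet and megakaryocyte markers, a source of Vwf and Pecam1 outside endothelium, summed to 22.7 and 39.6 CPM in knockout-labelled ventricles and 25.3 and 22.8 CPM in controls, 7 of the 9 were highest in knockout-labelled 2, beside 30.2% of all genes, and none was at 0 in all libraries. Their most abundant gene, Pf4, was at 11.5 and 23.6 CPM in knockout-labelled ventricles and 13.2 and 10.7 CPM in controls, and the part of these cells in the Vwf and Pecam1 values was not tested. The 8 leukocyte and macrophage markers summed to 100.3 and 123 CPM in knockout-labelled ventricles and 238 and 146 CPM in controls, and 7 of the 8 were highest in control 1, beside 26.2% of all genes. Without control 1, which also held the T cell markers, the log2 fold changes of Cldn5, Egfl7, Kdr and Tie1 were -0.63, -0.62, -0.50 and -0.33, and that of Pecam1 was 0.22. The knockout-labelled values of Cldn5, Egfl7, Kdr and Tie1 also lay below control 2, so their direction there was largely fixed beforehand. The 7 pericyte markers, of cells wrapped round capillaries, summed to 820 and 620 CPM in knockout-labelled ventricles and 841 and 849 CPM in controls. Of these, Pdgfrb, Kcnj8 and Notch3 were lower in both knockout-labelled ventricles (3 of 7, beside 29.7% of all genes), with log2 fold changes of -0.57, -0.44 and -0.84. The most abundant, Abcc9, was at 379 and 194 CPM in knockout-labelled ventricles and 315 and 310 CPM in controls. In bulk RNA, how much of it came from pericytes was not tested. Abcc9, Rgs5, Cspg4 and Higd1b overlapped between groups. Lymphatic endothelial markers, 6 in all with Ccl21a at 0 in every library, summed to 152 and 166 CPM in knockout-labelled ventricles and 141 and 159 CPM in controls. Prox1 was the most abundant, at 91.2 and 82.5 CPM in knockout-labelled ventricles and 86.7 and 115 CPM in controls. How much of it came from lymphatic cells was likewise not tested. Of the 5 tested, Lyve1, Pdpn and Mmrn1 were higher in both knockout-labelled ventricles (beside 26.5% of all genes), with log2 fold changes of 0.81, 0.47 and 0.44 and adjusted p of 0.165, 0.316 and 0.415 (edgeR). Cardiomyocyte markers summed to 76306 and 83795 CPM in knockout-labelled ventricles and 62924 and 57394 CPM in controls, fibroblast markers to 4652 and 4043 CPM in knockout-labelled ventricles and 2924 and 4575 CPM in controls, smooth muscle markers to 1439 and 1174 CPM in knockout-labelled ventricles and 215 and 390 CPM in controls, and erythroid markers to 765 and 662 CPM in knockout-labelled ventricles and 1090 and 1122 CPM in controls. Acta2 made up most of the smooth muscle sum, at 1374 and 1136 CPM in knockout-labelled ventricles and 173 and 332 CPM in controls. Myh11 was lower in both knockout-labelled ventricles, at 20.3 and 17.8 CPM, against 27.5 and 32.5 CPM in controls, and Cnn1 and Tagln overlapped between groups. The smooth muscle and cardiomyocyte sums were higher in both knockout-labelled ventricles than in either control. Of the 10 cardiomyocyte markers, 5 were higher in both knockout-labelled ventricles, beside 26.5% of all genes. Myh7 and Ryr2 had log2 fold changes of -1.16 and -0.26 and overlapped between groups. The pericyte, leukocyte, T cell and erythroid sums were lower in both knockout-labelled ventricles than in either control. Fibroblast, lymphatic and platelet sums overlapped. The part of these cells in the values of the endothelial genes was not tested.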

How the data were processed

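Ventricular RNA of 4 libraries (2 knockout-labelled, 2 control) was polyA-selected and sequenced from stranded libraries, per the labels' protocols. The submitters' processing notes name STAR 2.5.3a, HTSeq 0.6.1 and the build GRCm38. Annotation release and strand setting: not given in the sources used here. The deposited counts are whole reads per gene, unscaled, and the series table repeats them with log2 fold changes and adjusted p-values deposited by the authors; its 4 normalized columns were not used. HTSeq's 5 summary rows were left out. HTSeq's class of non-unique alignments made up 23.9% and 29.7% of all counts, summary rows included, in knockout-labelled libraries and 19.4% and 21.0% in controls.

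Identifiers were matched without version to GENCODE vM21 for 53360 of 53465 genes. Genes kept by filterByExpr were scaled by TMM (factors 0.972, 0.869, 1.08 and 1.10 in knockout-labelled libraries 1 and 2 and controls 1 and 2) and compared by edgeR 4.0.16's quasi-likelihood test in R 4.3.3 with no covariate and Benjamini-Hochberg adjustment over all genes at 0.05. SE of a log2 fold change was taken from the F statistic and the 95% interval from its t distribution. Levels per kb used merged exons, and GC content that of the longest transcript. DESeq2 1.42.0 and limma 3.58.1 were alternatives, with those listed in the closing section. The members, the 16 gene lists and the tests were chosen with earlier results of these data known. Genes named are the 10 members, Ctnnb1, from each related list the 3 with the smallest edgeR p and the most abundant per length, the most abundant marker of an other-cell list where its values are given, and the 5 of nearest profile. Apln, Xist, Myh7, Ryr2 and the further pericyte, lymphatic and smooth muscle markers were added after their values were seen. Same-numbered libraries are not stated to be paired.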

Additional observations from a re-analysis of the deposited data

How the results depend on the processing

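Over 12 alternatives for each of the 10 genes, 110 of 120 log2 fold changes kept their direction and 0 had an adjusted p under 0.05, the smallest being 0.0537. Cldn5, Egfl7, Kdr and Tie1 stayed below 0 in all 12, with ranges from -0.76 to -0.38, -0.78 to -0.34, -0.61 to -0.21 and -0.56 to -0.05. Each had both knockout-labelled values below both controls, so leaving out 1 library could hardly turn its sign. Their kept direction is therefore a description and no test. Values that turned were those of Pecam1 and Flt1 with library totals alone (-0.0581 and -0.14) and without knockout-labelled 2 (-0.0637 and -0.13), Cdh5 once corrected for GC content and gene length (0.026) and without knockout-labelled 2 (0.0219), Tek without knockout-labelled 2 (0.07) and without control 2 (0.22), Esam without knockout-labelled 1 (0.0948) and Vwf without knockout-labelled 2 (-0.19). With 1 library left out, the values spanned -0.0637 to 0.476 for Pecam1, -0.0918 to 0.0219 for Cdh5, -0.13 to 0.381 for Flt1, -0.26 to 0.22 for Tek, -0.50 to 0.0948 for Esam and -0.19 to 1.04 for Vwf. The causes were not tested, except that library totals alone moved the median of all genes to -0.26. The median of the 10 was -0.38 there (less that of all genes, -0.12, and -0.11 with TMM), -0.0488 with the GC content and length correction, and between -0.20 and -0.10 with 1 library left out. Members at an unadjusted p under 0.05 were 4 lower with library totals alone and 1 lower with that correction, and with 1 library left out they ranged from 0 to 3 higher and from 0 to 3 lower; without control 1 or control 2 there were 0 in either direction, and without knockout-labelled 1 there were 3 higher, namely Pecam1, Flt1 and Vwf.

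Over all genes, edgeR called 2 higher and 0 lower, 313 and 241 with no filter on low counts, DESeq2 951 and 755, and limma-voom 0 and 0 (2087 and 1948 at an unadjusted p under 0.05). Leaving out 1 library gave 0 to 9 higher and 0 to 30 lower, the lone library of a group being assumed to vary like the others. The replicate block gave 9 higher and 9 lower and changed no call among the 10 genes. Deviations of same-numbered libraries had a correlation of -0.142 over 18157 genes. With 2 libraries in a group, that value cannot show whether the numbers mark pairs. A crossed pairing, added after the data were seen, gave 501 higher and 440 lower. Depth did not limit these genes, whose lowest count was 1532, but 2 libraries in a group leave wide intervals.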
